A study of Mus musculus with 200 samples.

Results

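The Hox genes encode homeodomain transcription factors that assign position along the head-to-tail axis of the embryo. All genes whose symbol is Hox followed by a cluster letter (a to d) and a number were taken, which gave 39 of the 25006 genes measured. Polyadenylated RNA was measured by Smart-seq2, which amplifies whole cDNAs from few cells, in 200 mouse libraries of about 10 to 100 cells each, which fell into 70 groups. Embryo libraries were labelled Epi, the epiblast that forms the embryo proper, or PrE, the primitive endoderm. Embryos came from natural matings, were dissected from the decidua or cultured in 3D, and their lineages were separated and trypsinised; no strain is given. At E5.0 controls were compared with Suz12 Eed double knockouts in Epi and PrE (3 libraries a group). A screen of 148 E5.0 Epi libraries in 10 batches held 29 control libraries and 40 knockouts. In batch 8, which holds the Bend3 knockout and its controls, the titles give stage 6.0 and the stage field E5.0. Knockouts were made in embryos with C-CRISPR, in which several guide RNAs cut each target gene. The compound GSK-J4 blocks enzymes that remove H3K27 methylation and was compared with control in E4.5 Epi and in E5.0 Epi, where blastocysts of E3.5 received 50 µM. Zbtb17 was perturbed by knockout in E4.5 Epi and by dTAG, a degron system that removes a tagged protein, in E5.0 Epi. The knockouts of the screen include Zbtb17 in E5.0 Epi as well. Zbtb17 was also knocked out in embryoid bodies (EB) sampled on days 0, 1, 2 and 3 beside wild type (2 libraries a group). EB are aggregates of differentiating embryonic stem cells. The titles of knockout EB carry ZB11, whose meaning the labels do not give.

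Hox genes lie in 4 clusters, and genes with the same number in different clusters are paralogs. Genes of low number sit at the 3′ end of a cluster and act anteriorly, and genes of high number act in the trunk, limbs and tail. In pluripotent cells the clusters are bivalent: they carry H3K27me3, placed by Polycomb repressive complex 2 (PRC2) with its core subunits Suz12, Eed and Ezh1 or Ezh2, together with H3K4me3. During gastrulation the clusters open in order from the 3′ end, with retinoic acid, Wnt and Fgf signals as inducers.

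On mm10, with the gene models of GENCODE vM21, the 11 Hoxa genes lie on chromosome 6 and the 10 Hoxb genes span chr11:96194316-96368256. The 9 Hoxc genes span chr15:102921103-103036852 and the 9 Hoxd genes chr2:74668310-74765142. Of the 39 genes, 23 overlap another annotated gene, 15 on the same strand and 14 on the other. The Hoxa3 gene covers Hoxa4, Hoxa5 and Hoxa6, and the Hoxc5 gene covers Hoxc6, Hoxc8 and Hoxc9 and overlaps Hoxc10 in part. Use of strand in counting is not given in the sources used here, so reads of overlapping partners cannot be told apart. Hoxa10, Hoxb1, Hoxb7, Hoxb9, Hoxb13, Hoxc13 and Hoxd13, which carry much of what follows, overlap none. Hoxc6 and Hoxc9, which recur below, overlap Hoxc5 on the same strand, and Hoxa7 and Hoxb6 overlap a gene on the other strand.

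RefSeq promoter windows of 300 bases (250 before the start and 50 after it, build GRCm38.p6) matched 22 of the 39 symbols, with 24 windows in all. Their number of CG dinucleotides ranged from 4 to 45 with a median of 14.5, against a median of 7 and quartiles of 3 and 20 over 32851 mouse promoters. The letters TATAAA were found, on either strand, in windows of 4 of these genes (Hoxa10, Hoxb8, Hoxd4 and Hoxd13) and in 13.62% of all promoters. Printed below are Hoxa7, Hoxd8 and Hoxd13, which were higher in PrE of the Suz12 Eed double knockout, and Hoxb1, which was lower in Zbtb17 knockout EB. Each CG is in capitals. The Hoxa7 window (chr6:52218524-52218823, minus strand) holds 9 CG, a number reached by 45.78% of all promoters, and the Hoxd8 window (chr2:74704365-74704664, plus strand) 6, reached by 56.44%. The Hoxd13 window (chr2:74667975-74668274, plus strand) holds 37, reached by 5.583%, and the Hoxb1 window (chr11:96365508-96365807, plus strand) 10, reached by 43.47%. The Hoxd13 window lies above the upper quartile and the other windows between the quartiles, and all are read 5′ to 3′ on the gene's strand.
Hoxa7: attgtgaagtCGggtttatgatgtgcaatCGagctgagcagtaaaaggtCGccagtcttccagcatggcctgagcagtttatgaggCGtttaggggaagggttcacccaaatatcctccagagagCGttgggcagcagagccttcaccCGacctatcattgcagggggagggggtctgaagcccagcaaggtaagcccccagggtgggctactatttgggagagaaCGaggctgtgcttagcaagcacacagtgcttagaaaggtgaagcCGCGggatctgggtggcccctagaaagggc
Hoxd8: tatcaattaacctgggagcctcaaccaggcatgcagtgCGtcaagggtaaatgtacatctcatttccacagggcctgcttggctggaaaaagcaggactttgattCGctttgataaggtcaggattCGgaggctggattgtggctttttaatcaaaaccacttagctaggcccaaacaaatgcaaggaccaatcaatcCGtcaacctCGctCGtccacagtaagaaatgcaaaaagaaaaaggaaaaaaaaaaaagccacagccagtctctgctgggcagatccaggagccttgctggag
Hoxd13: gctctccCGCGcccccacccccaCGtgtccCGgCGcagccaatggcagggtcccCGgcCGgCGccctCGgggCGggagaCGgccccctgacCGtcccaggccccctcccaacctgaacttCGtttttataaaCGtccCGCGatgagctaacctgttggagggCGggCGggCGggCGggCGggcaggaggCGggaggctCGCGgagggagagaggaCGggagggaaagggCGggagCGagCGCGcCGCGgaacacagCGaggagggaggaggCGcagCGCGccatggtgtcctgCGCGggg
Hoxb1: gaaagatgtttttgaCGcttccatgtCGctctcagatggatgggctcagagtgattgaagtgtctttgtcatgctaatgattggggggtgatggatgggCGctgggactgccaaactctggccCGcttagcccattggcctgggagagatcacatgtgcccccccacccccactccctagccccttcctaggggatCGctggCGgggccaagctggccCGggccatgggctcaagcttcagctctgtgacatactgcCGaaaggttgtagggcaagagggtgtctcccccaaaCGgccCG

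Levels are in TPM, transcript abundances scaled for gene length and to a fixed total per library. A gene was counted as detected at 1 TPM or more. Read counts were not used here, so depth and counting error are unknown; libraries had 9465 to 11279 genes detected in the GSK-J4 and Suz12 Eed tables, 7236 to 11315 in the screen, 10236 to 10645 in the dTAG table, 3986 to 4952 at E4.5 in the table of the Zbtb17 knockout and 5970 to 13512 in EB. Differences were tested with limma on log2(TPM + 1), with Benjamini-Hochberg adjustment over all genes tested in a comparison, and a gene passed at an adjusted p under 0.05. To be tested, a gene needed 1 TPM or more in a number of libraries equal to the size of the smaller group. A Hox gene that is silent in the controls is therefore tested only where it is high in the perturbed group, so counts among tested Hox genes are no evidence of a direction by themselves. A log2 difference on this scale understates the change of low genes. In bulk libraries, fewer cells of a type and less RNA per cell cannot be told apart.

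Hox transcripts were scarce in the control libraries labelled Epi. In 33 of these 44 libraries the summed level of 19 trophectoderm and extraembryonic ectoderm markers exceeded that of 12 epiblast markers, with medians of 3377 and 1453 TPM, so the marker genes go against the label there. Over the 44 libraries the median number of Hox genes detected was 1 of 39, and 10 libraries had 0. The highest number was 5. The summed level of all 39 genes had a median of 5.20 TPM and ranged from 0 to 24.6 TPM. Only 15 Hox genes reached 1 TPM in any Epi control, and 7 (Hoxa4, Hoxa6, Hoxa11, Hoxa13, Hoxb5, Hoxb8 and Hoxd12) were listed at 0 in all 44.

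The 2 highest means belonged to genes at the 5′ end of a cluster. Hoxb13, the last gene of the Hoxb cluster, had the highest mean in Epi controls at 1.34 TPM, was detected in 14 of 44 libraries and reached 18.8 TPM in 1. Hoxc13, a regulator of hair and nail growth later in life, followed at a mean of 0.912 TPM, detection in 14 libraries and a maximum of 5.03 TPM. Hoxb7 had a mean of 0.832 TPM and was detected in 13. Hoxd1 reached 14.8 TPM in 1 control library and was detected in only 2, so 1 library sets its mean. That library is control replicate 3 of batch 8, the batch whose titles give stage 6.0 and whose stage field gives E5.0. Medians over the 44 libraries were 0 TPM for Hoxb13, 0.587 TPM for Hoxc13 and 0.0845 TPM for Hoxb7, and the order of these genes lies within the spread between libraries.

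Over all 200 libraries, 34 Hox genes reached 1 TPM at least in 1 library, and 26 did so in every library of some group. Hoxa6, Hoxa13, Hoxd3, Hoxd4 and Hoxd12 never did. Libraries with 0 Hox genes detected numbered 30. Hoxc13 was detected most often, in 92 libraries, while Hoxb13 was detected in 77 and Hoxb7 in 53. Genes 2 to 6 of the Hoxb cluster and Hoxc6 and Hoxc8, in contrast, were detected mostly in EB: Hoxb3 in 12 EB and 0 screen libraries, Hoxc6 in 15 and 0, Hoxb5 in 6 and 0, and Hoxc8 in 8 and 0. The 12 genes that neither passed a test nor were detected throughout any group were Hoxa2, Hoxa3, Hoxa4, Hoxa6, Hoxa11, Hoxa13, Hoxc11, Hoxc12, Hoxd3, Hoxd4, Hoxd9 and Hoxd12.

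PrE controls expressed 2 posterior Hox genes that the 3 Epi controls compared with them lacked or barely held. Both genes passed the filter through PrE, so the direction is no evidence by itself. Over all 44 Epi controls of the series, Hoxa10 reached 3.12 TPM and was detected in 2, and Hoxc13 reached 5.03 TPM and was detected in 14. Hoxa10, known for its role in the uterus and limb, was at 4.02, 3.43 and 5.85 TPM in the 3 PrE control libraries and listed at 0 in all 3 Epi controls (adjusted p = 2.99e-05). Hoxc13 was at 9.15, 7.86 and 8.88 TPM in PrE and at 0.746, 1.07 and 0.719 TPM in Epi, a log2 difference of 2.40 ± 0.40 (SE) with an adjusted p of 0.00013. Neither gene's groups overlapped. PrE control libraries 1 and 2 were nearly identical (Pearson correlation 0.997 on the log2 scale) and entered every test as their average, so that group counts as n = 2. Hoxb7, the third Hox gene tested, was at 0, 0 and 3.22 TPM in PrE and 1.74, 0.572 and 0 TPM in Epi (adjusted p = 0.651). Of all 11748 genes tested in this contrast 56.5% passed, with a median log2 difference of -0.46. The 7 markers of the decidua, the maternal tissue around the embryo, summed to 306 to 326 TPM in PrE controls and 23.4 to 30.3 TPM in Epi controls. Cryab held most of this sum, at 297.1 to 317.5 against 21.4 to 29.01 TPM, and Bmp2 was at 7.90 to 8.82 TPM in PrE. Prl8a2, Pgr, Hand2 and Des were listed at 0 in all PrE controls; the part of this list in the Hoxa10 result was not tested. The 18 PrE markers summed to 7775 to 8681 TPM in PrE controls and 426 to 626 TPM in Epi controls. In Epi controls 5 of the 18 were at 1 TPM or more in every library, and only Gata6 was listed at 0 in all. Gata6 was at 16.2 to 26.8 TPM in PrE. Epi controls also had the trophectoderm factor Elf5 at 70.2 to 95.7 TPM beside Pou5f1 at 43.4 to 138 TPM.

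In Suz12 Eed double knockouts 1 Hox gene was higher in Epi and 7 in PrE, at a few TPM each. These counts depend on the processing: median centring gave 2 in Epi and 1 in PrE, no filter 0 and 2, and leaving out PrE control replicates 1 and 2 gave 1 in PrE. Whether the lineages differ in this count was not tested. The targeted transcripts were lower but not absent: Eed was at 38.9 to 51.9 TPM in Epi double knockouts against 157 to 204 TPM in controls (adjusted p = 2.63e-06) and at 49.7 to 63.5 against 147 to 174 TPM in PrE (adjusted p = 5.02e-05). Suz12 was at 7.34 to 17.96 against 20.5 to 28.8 TPM in Epi (adjusted p = 0.0291) and at 13.1 to 17.5 against 26.0 to 30.9 TPM in PrE (adjusted p = 0.0428). The number of Hox genes detected was 1, 3 and 0 in the Epi controls and 5, 8 and 5 in the Epi double knockouts. In PrE it was 2, 2 and 4 in controls and 11, 9 and 12 in double knockouts. Neither lineage's groups overlapped. All genes detected numbered 9740 to 9871 in PrE controls and 10720 to 11188 in PrE double knockouts, so detection was higher in general there. In Epi these totals overlapped, at 10692 to 11248 in controls and 10510 to 11279 in double knockouts.

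**Figure D1:**
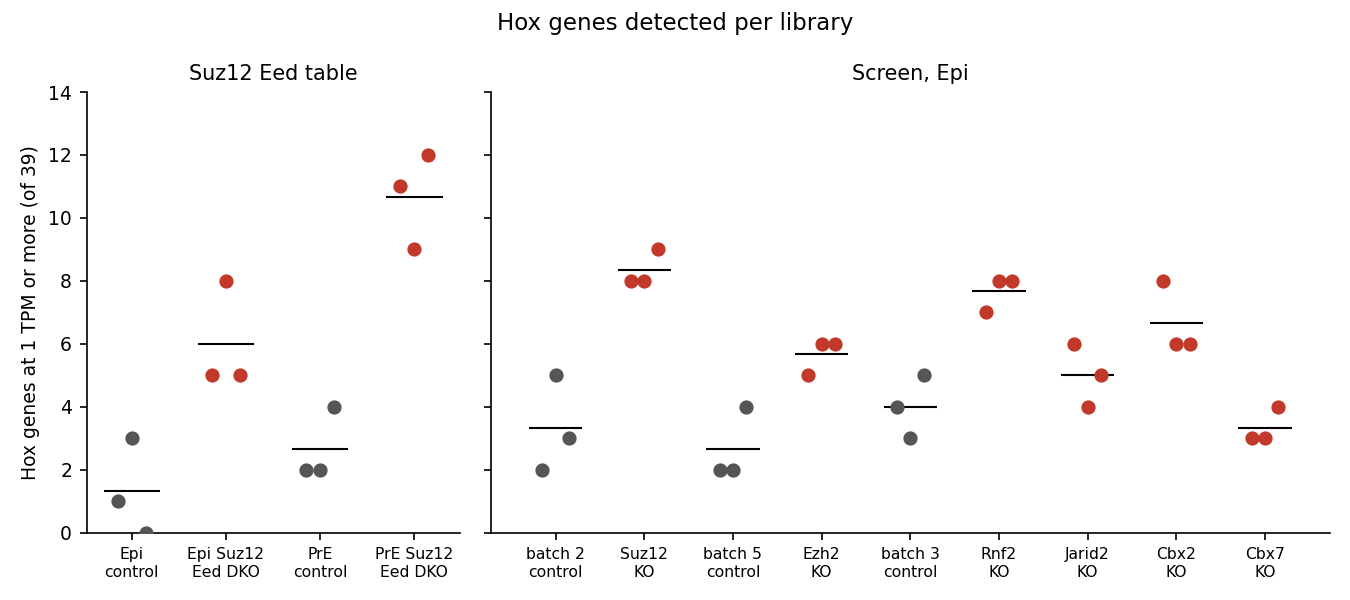
Number of the 39 Hox genes at 1 TPM or more (vertical axis) in each library (point) of the Suz12 Eed table and of 3 screen batches, with controls in grey, perturbed libraries in red and the mean of the points as a line. Double knockout libraries sit at 5 to 8 in Epi and 9 to 12 in PrE, above all their controls, whereas Jarid2 and Cbx7 knockouts overlap the batch 3 controls. In PrE the double knockouts also had more of all genes detected than their controls.

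The summed Hox level was 5.25, 7.85 and 2.97 TPM in Epi controls and 15.1, 20.7 and 21.8 TPM in Epi double knockouts. In PrE the sum was 13.3, 11.4 and 20.4 TPM in controls and 40.3, 44.4 and 62.2 TPM in double knockouts. The whole family thus summed to 62.2 TPM or less in the double knockouts, in which Suz12 and Eed transcripts were lower but not absent. Whether PRC2 itself was lost was not measured here. In Epi most of the gain lay at the posterior end: paralog groups 9 to 13 had a mean sum of 2.63 TPM in controls and 14.5 TPM in double knockouts, groups 4 to 8 had 1.51 and 3.05 TPM, and groups 1 to 3 had 1.22 and 1.63 TPM. In PrE, groups 9 to 13 went from 13.3 to 31.5 TPM, groups 4 to 8 from 1.73 to 15.1 TPM and groups 1 to 3 from 0 to 2.30 TPM. By cluster in PrE, Hoxa genes held 4.80 TPM in controls and 20.0 TPM in double knockouts, Hoxb 1.07 and 8.21 TPM, Hoxc 8.88 and 15.1 TPM and Hoxd 0.300 and 5.67 TPM.

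Counted over all 39 genes with no filter, 20 were listed at 0 in every Epi control and 11 of these were above 0 in a double knockout library. In PrE 31 were at 0 in every control, and 22 of them were above 0 in a double knockout library. Every double knockout library lay above every control library for 6 of 39 Hox genes in Epi, beside 5.73% of all genes measured, and for 14 in PrE, beside 20.9%. Every double knockout library lay below every control for 1 Hox gene in Epi, beside 9.05% of all genes, and for 0 in PrE, beside 5.33%. In limma 9.19% of all tested genes passed in Epi and 26.7% in PrE, where 21.6% were called higher, and the median log2 difference of all genes tested was 0.401 in PrE and -0.129 in Epi.

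In Epi 3 Hox genes had enough signal to be tested and 1 rose. Hoxc13 and Hoxb13 passed the filter through the double knockouts, with 1 control library each at 1 TPM or more. The direction of their change is therefore no evidence by itself. Hoxc13 was at 5.34, 2.29 and 7.33 TPM in the double knockouts against 0.746, 1.07 and 0.719 TPM in controls, or 4.99 ± 2.54 against 0.846 ± 0.197 TPM (SD, n = 3 and 3). Its log2 difference was 1.60 ± 0.36 (SE) with a limma adjusted p of 0.0115, and the groups did not overlap. Hoxb13 also had groups apart, at 2.04, 5.42 and 2.87 against 0.821, 1.72 and 0 TPM, but did not pass (log2 difference 1.31, adjusted p = 0.0922). Hoxb7 was at 1.95, 1.45 and 0.496 against 1.74, 0.572 and 0 TPM (adjusted p = 0.656). With the replicate number as a block, 2 Hox genes passed rather than 1, and with no filter on low values 0 passed, with Hoxc13 at an adjusted p of 0.0536.

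In PrE 11 Hox genes were tested and 7 rose. Hoxc9, which acts in the thoracic trunk and spinal cord, was at 5.21, 4.77 and 6.18 TPM in the double knockouts against 0, 0 and 0.772 TPM in controls. Its log2 difference was 2.26 ± 0.39 (SE, n = 3 and 2) with a limma adjusted p of 0.000772, and it passed under every alternative processing tried. Hoxa7, a trunk gene of the middle of its cluster, was at 1.91, 3.72 and 4.99 against 0, 0 and 1.11 TPM (log2 difference 1.58, adjusted p = 0.0166). Hoxd8 was at 1.07, 3.20 and 2.41 against 0.136, 0.143 and 0.527 TPM (log2 difference 1.23, adjusted p = 0.0144). All 3 genes had groups that did not overlap.

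Hoxd13, Hoxa5 and Hoxd10 rose from controls listed at 0 throughout, so no fold is given. Like Hoxc9, Hoxa7 and Hoxd8, they passed the filter only through the double knockouts. The direction of these rises is therefore no evidence by itself. Hoxd13, the last Hoxd gene and a regulator of digits, was at 2.38, 1.79 and 1.76 TPM (adjusted p = 0.0188). Hoxa5, known from lung and axial skeleton, was at 2.43, 0.252 and 2.56 TPM (adjusted p = 0.0256). Hoxd10 was at 2.06, 0.469 and 1.09 TPM (adjusted p = 0.0368). Posterior and middle genes of the Hoxa, Hoxc and Hoxd clusters were thus among the genes that rose.

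Of the remaining 4 tested in PrE, 3 had higher but not passing values. Hoxb7 was at 4.69, 3.39 and 10.3 against 0, 0 and 3.22 TPM (adjusted p = 0.0504). Hoxb13 was at 1.17, 0.602 and 4.14 TPM against a listed 0 (adjusted p = 0.0600). Hoxa10, already present in PrE controls, was at 9.06, 7.81 and 11.8 against 4.02, 3.43 and 5.85 TPM (log2 difference 0.88, adjusted p = 0.0808). Hoxc13, the other gene already on in PrE controls, was at 6.80, 10.2 and 8.0 against 9.15, 7.86 and 8.88 TPM, with overlapping groups (log2 difference -0.07 ± 0.40 (SE), adjusted p = 0.912).

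**Figure D2:**
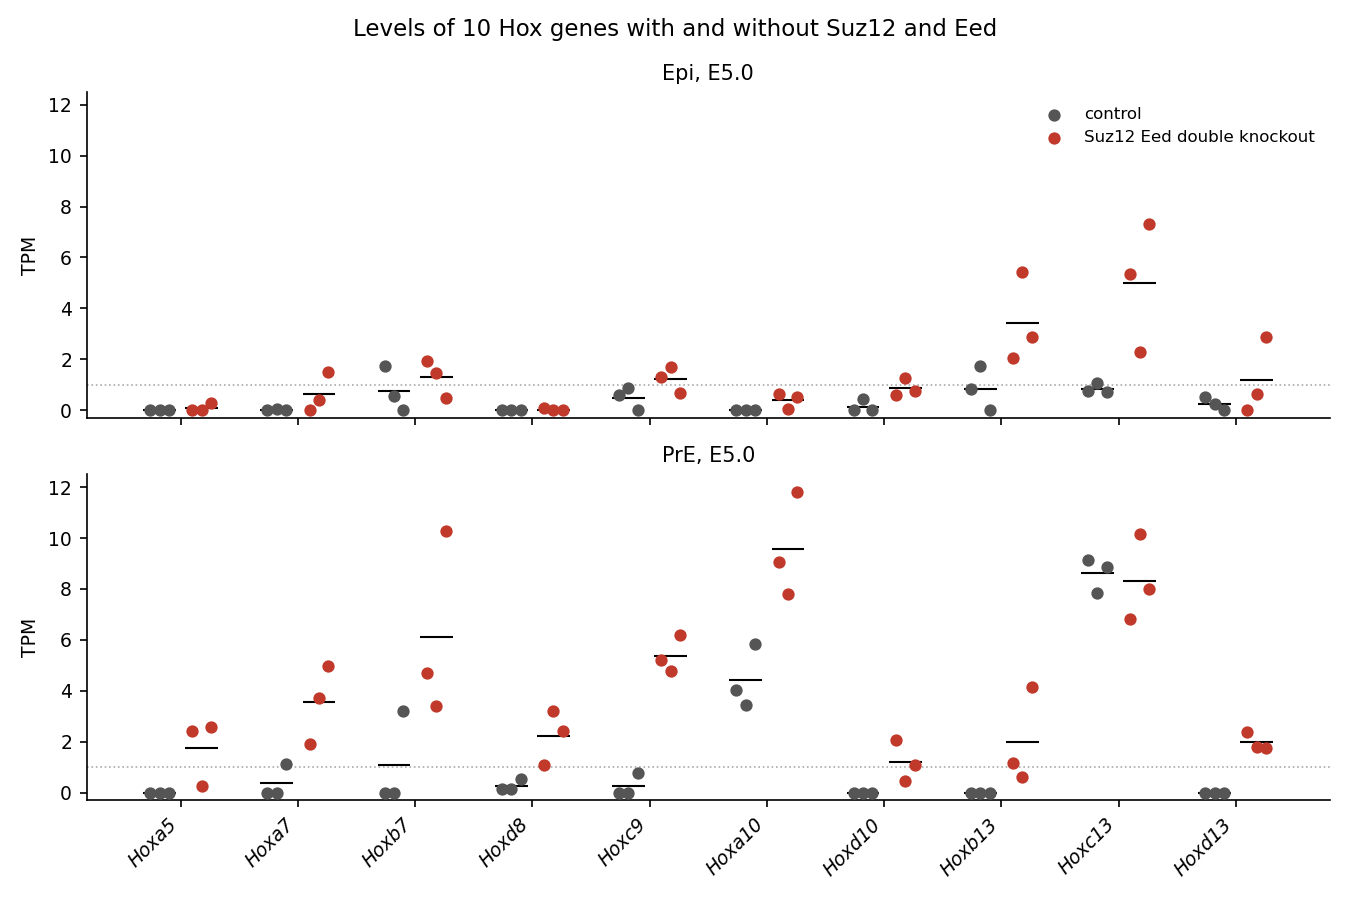
TPM of 10 Hox genes tested in PrE, shown in Epi (top) and PrE (bottom) in paralog order, with each library as a point, controls in grey, double knockouts in red, the mean of the 3 points as a line (PrE controls 1 and 2 plotted apart) and 1 TPM dotted. In PrE the groups lie apart for every gene shown but Hoxc13. Genes silent in the controls are shown only where the double knockouts were high enough to be tested. Hoxc13 is at 6.80 to 10.2 TPM in PrE of both genotypes but moves from about 1 TPM upward in Epi.

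The PrE count rests on few libraries and on the scale. After centring each library on its median only Hoxc9 passed (log2 difference 1.80, adjusted p = 0.0041), and the counts without a library were 1 without control replicates 1 and 2, 4 without control replicate 3, 4 without double knockout replicate 1 and 3 without double knockout replicate 3.

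Hoxc9 and Hoxc13 differed between the lineages in their response. The double knockout effect in PrE minus that in Epi was 1.66 for Hoxc9 (limma interaction, adjusted p = 0.0400) and -1.67 for Hoxc13 (adjusted p = 0.0389), where 19.1% of all tested genes passed. In Epi, Hoxc9 was at 1.29, 1.68 and 0.689 TPM in double knockouts and 0.613, 0.864 and 0 TPM in controls. For Hoxd8 the difference was 1.20 (adjusted p = 0.0823). After median centring Hoxc9 no longer passed and Hoxc13 did (-2.26, adjusted p = 0.00995). Leaving out any of 9 of the 11 libraries or pairs lowered the count of 2 to 1 or 0.

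Noncoding RNAs of the Hoxa cluster rose beside it in PrE. Hotairm1 was at 15.5 to 23.5 TPM in PrE double knockouts against 2.82 to 6.75 TPM in controls (adjusted p = 0.00319). Hotairm2 was at 3.03 to 4.73 against 0.246 to 0.737 TPM (adjusted p = 0.00884), and Hoxa11os at 2.49 to 4.23 TPM against a listed 0 (adjusted p = 0.000265). In Epi Hotairm1 was at 17.3 to 31.4 against 9.52 to 22 TPM (adjusted p = 0.186), so in controls it was higher in Epi than in PrE (adjusted p = 0.00673), the reverse of Hoxa10 and Hoxc13. Among 24 genes that flank the 4 clusters, 20 were tested; in Epi 1 rose (Skap2) and 1 fell (Cbx1), and in PrE 3 rose and 3 fell, with a median log2 difference of 0.15.

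Lists of genes that act with or on the clusters gave the counts below, beside the 9.19% of all genes called in Epi and 26.7% in PrE. Of 11 PRC2 subunits tested in Epi, 1 rose and 3 fell, and of 10 in PrE 2 rose and 3 fell, the falls including the targeted genes and, in PrE, Ezh2 (109 to 57.5 TPM). Among PRC1 subunits 1 rose and 1 fell of 17 in Epi, and 5 rose of 19 in PrE, including Cbx8, which went from 0.0492 ± 0.0852 to 8.07 ± 1.75 TPM (adjusted p = 0.00043). Of 11 trithorax and demethylase genes tested in each lineage 1 fell in Epi (Psip1), and 1 rose (Men1) and 2 fell (Kdm6b and Dpy30) in PrE. Of the TALE cofactors, which bind DNA with Hox proteins, 0 of 4 and 0 of 7 passed in limma. ParaHox and Evx genes had 1 fall (Gbx2) among 2 tested in Epi and 0 calls of 1 in PrE. In the retinoic acid pathway Crabp2 and Cyp26a1 fell among 10 in Epi, and Crabp2 rose among 8 in PrE. Posterior signals had 1 fall of 8 in Epi (Lef1) and 1 of 7 in PrE (Mixl1). Of 42 other developmental Polycomb targets, 1 of 11 tested rose in Epi (Msx2) and 3 of 13 in PrE (Sox17, Lhx2 and Nkx2-2). Median log2 differences of that list were 0.39 in Epi and 0.68 in PrE.

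Trophoblast markers moved in the same libraries. The summed level of 19 trophectoderm and extraembryonic ectoderm markers was 1652 to 1795 TPM in Epi controls and 6373 to 7426 TPM in Epi double knockouts, with 8 of 18 tested higher and 1 lower. In PrE it was 644 to 958 and 2255 to 2345 TPM, with 6 of 13 higher. The 12 epiblast markers summed to 2003 to 2669 TPM in Epi controls and 1013 to 1263 TPM in Epi double knockouts. The 18 PrE markers summed to 7775 to 8681 and 10240 to 12630 TPM in PrE, all 18 above 1 TPM in every library. The part of these changes in the Hox result was not tested.

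The screen asked what single factors do to the E5.0 Epi. Controls came from the same batch as the knockout, and knockouts of a batch share them. Of 84 tests of a Hox gene in 39 knockouts 25 passed, 11 higher and 14 lower, beside 10.1% of all gene tests in the screen (5.04% higher and 5.09% lower). The count was 15 with the replicate number as a block, 16 with a pseudocount of 0.1 and 59 with no filter on low values. Genes near 0 in the knockout or in the control passed the filter only through the other group, so these shares are no measure of enrichment. The calls lay in 13 knockouts. The 11 rises were 3 in the Rnf2 knockout, 2 each in the Suz12, Ezh2 and Jarid2 knockouts, 1 in the Atrx knockout and 1 in the libraries labelled Cxxc1 knockout. The Hoxc9 call of Suz12 was lost under 6 of 13 alternatives, that of Hoxb13 under 3 for Suz12 and 8 for Ezh2, and that of Hoxc13 for Ezh2 under 2.

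Suz12 knockout raised Hoxb13 and Hoxc9, where 22.1% of all genes passed. Suz12 itself was at 4.50 ± 0.863 against 25.5 ± 6.23 TPM (SD, n = 3 and 3, adjusted p = 9.7e-08). Hoxb13 was at 18.3, 3.32 and 13.7 TPM against 0, 4.96 and 0.964 TPM in batch 2 controls, with 1 overlapping library (log2 difference 2.24 ± 0.62 (SE), adjusted p = 0.00379). Hoxc9 was at 3.84, 1.45 and 4.59 against 0.547, 0.935 and 0.561 TPM, with groups apart (log2 difference 1.28 ± 0.38 (SE), adjusted p = 0.00853). Hoxc9 was thus higher in both the single and the double knockout tables, in Epi of the one and PrE of the other. Detected Hox genes numbered 8, 8 and 9 against 2, 5 and 3, and the summed Hox level was 37.3, 25.9 and 33.3 against 8.12, 24.6 and 10.9 TPM. All genes detected also lay apart, at 11218 to 11315 against 10044 to 10201. Trophectoderm markers summed to 16880 to 17330 TPM against 4485 to 4678 TPM in the same libraries, and their part was not tested.

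Ezh2 knockout raised Hoxb13 and Hoxc13, where 26.8% of all genes passed. Ezh2, the methyltransferase subunit, was at 15.01 ± 6.45 against 48.4 ± 11.3 TPM (adjusted p = 4.29e-05). Hoxc13 was at 1.60, 1.22 and 6.14 TPM against 0.109, 0 and 0 TPM in batch 5 controls (log2 difference 1.74 ± 0.45 (SE), adjusted p = 0.00185), with groups apart. Hoxb13 was at 7.44, 13.3 and 1.52 against 0, 0.555 and 4.13 TPM, with overlap (log2 difference 1.75, adjusted p = 0.0255). Hox genes detected numbered 5, 6 and 6 against 2, 2 and 4. All genes detected overlapped, at 9579 to 10390 against 9004 to 10490. In these libraries PrE markers summed to 3260 to 3448 against 996 to 1132 TPM, trophectoderm markers to 6343 to 8583 against 3636 to 3755 TPM and epiblast markers to 740 to 970 against 1257 to 1427 TPM; their part was not tested.

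Rnf2, the ubiquitin ligase of PRC1, and Jarid2, a PRC2 cofactor, gave Hox calls among few calls in all. Hoxa7 in both knockouts, and Hoxa9 in the Jarid2 knockout, were under 1 TPM in all batch 3 controls. They were tested only because the knockouts were high, so the shares of all genes given here are no measure of enrichment. In the Rnf2 knockout 1.83% of all genes passed and 3 of 8 Hox genes tested rose, all with groups apart. Hoxa7 was at 2.60, 2.74 and 2.79 TPM against 0.388, 0.408 and 0 TPM in batch 3 controls (log2 difference 1.57 ± 0.31 (SE), adjusted p = 0.000299). Hoxc4, a cervical gene at the 3′ end of its cluster, was at 2.89, 2.40 and 3.47 against 1.38, 2.11 and 0.878 TPM (log2 difference 0.70, adjusted p = 0.0179). Hoxa10 was at 3.17, 4.65 and 3.73 against 3.12, 0.761 and 1.07 TPM and lay at the threshold (log2 difference 0.97, adjusted p = 0.04995). Of 13 alternatives, 8 ended the Hoxa10 call, 7 the Hoxc4 call and 0 the Hoxa7 call. Hoxb13 was at 3.38, 4.45 and 4.99 against 0.615, 1.87 and 1.19 TPM and did not pass. Hox genes detected numbered 7, 8 and 8 against 4, 3 and 5. All genes detected also lay apart, at 10637 to 10807 against 10427 to 10506. Rnf2 RNA was at 31.2 ± 3.00 against 53.0 ± 7.24 TPM (adjusted p = 0.304), and trophectoderm markers summed to 5229 to 5497 against 8731 to 8970 TPM, the opposite of their direction in the Suz12 knockout. Epiblast markers summed to 298 to 317 against 382 to 409 TPM, PrE markers to 1656 to 1788 against 2332 to 2437 TPM and decidua markers to 98.4 to 113 against 38.1 to 55.3 TPM; the part of these lists was not tested.

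In the Jarid2 knockout, where 1.82% of all genes passed, 2 of 6 Hox genes tested rose and 1 fell. Hoxa9, a trunk and blood stem cell gene, was at 2.99, 2.42 and 1.47 against 0, 0 and 0.466 TPM (log2 difference 1.51 ± 0.26 (SE), adjusted p = 1.46e-05). Hoxa7, its neighbour in the cluster, was at 1.90, 1.93 and 1.84 TPM against the same batch 3 controls as for Rnf2 (log2 difference 1.21 ± 0.31 (SE), adjusted p = 0.0148). Hoxc5 was lower, at 0, 1.14 and 0 against 2.39, 0.941 and 1.33 TPM, with overlap (log2 difference -0.95, adjusted p = 0.0488). Jarid2 RNA was at 5.95 ± 1.59 against 7.06 ± 0.273 TPM (adjusted p = 0.9996), and trophectoderm markers summed to 8716 to 9144 TPM, overlapping the controls. PrE markers summed to 1600 to 1683 TPM, below the batch 3 controls, and epiblast markers to 513 to 524 and decidua markers to 105.8 to 151 TPM, above them; their part was not tested. Alternatives ended the Hoxa7 call in 4, the Hoxc5 call in 9 and the Hoxa9 call in 0 of 13 cases. The C-CRISPR cut may leave a transcript behind, so an RNA level that did not pass does not check the label.

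**Figure D3:**
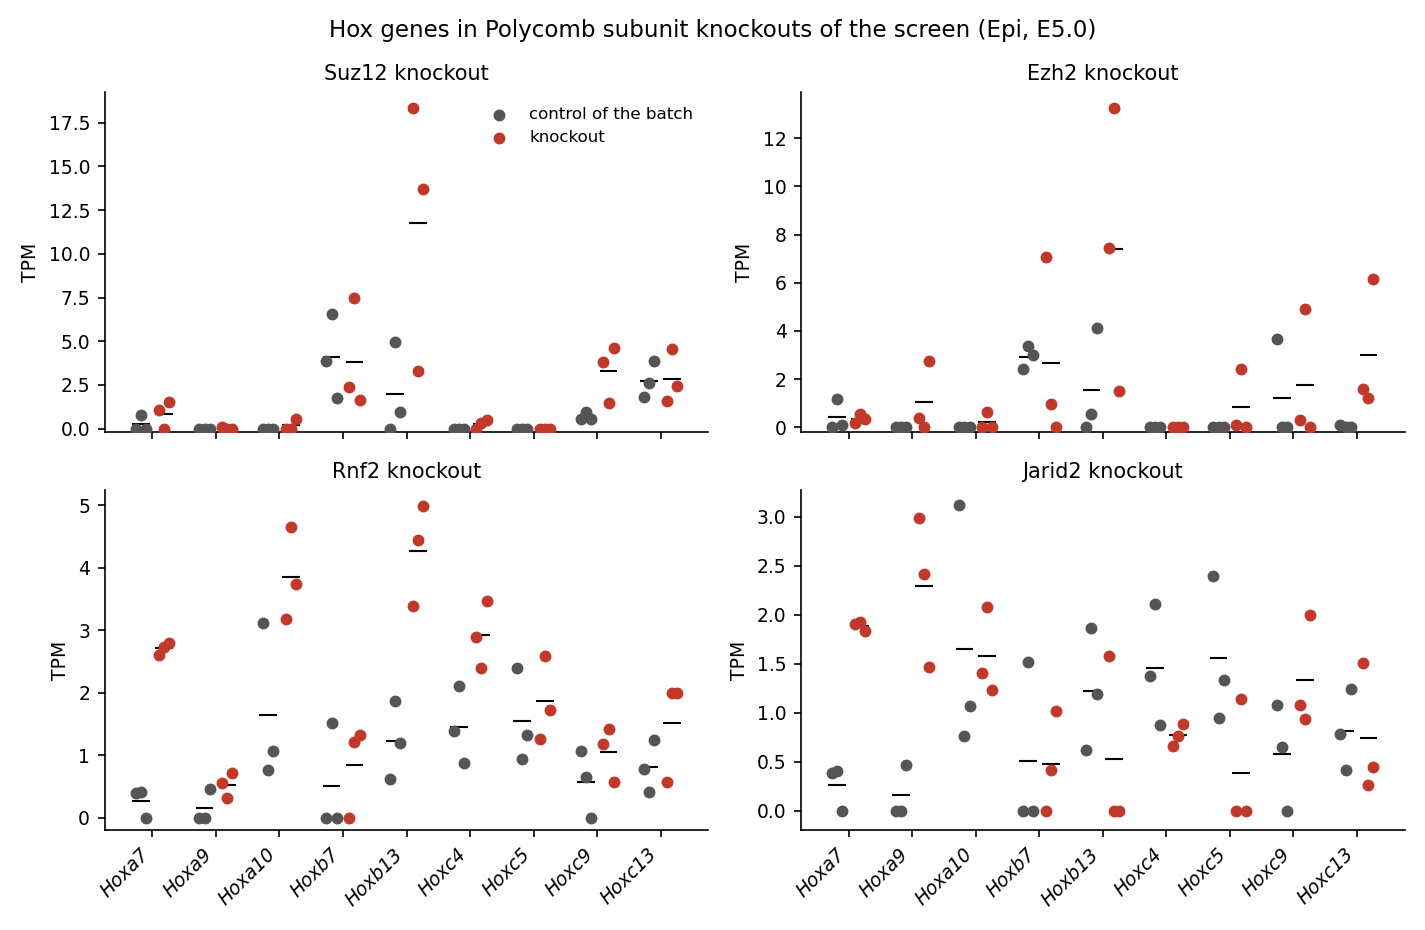
TPM of 9 Hox genes in the Suz12, Ezh2, Rnf2 and Jarid2 knockouts (red) and the controls of their batches (grey), each library a point and the mean of the points a line; each panel has its own vertical scale. Hoxa7 is at 2.60 to 2.79 TPM in the Rnf2 and 1.84 to 1.93 TPM in the Jarid2 knockout, above all controls, whereas Hoxb13 is spread widely in the Suz12 and Ezh2 knockouts.

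The Polycomb subunits Cbx2 and Cbx7 gave 0 Hox calls with limma, of 5 and 4 genes tested, beside 1.66% and 0.959% of all genes. At an unadjusted p under 0.05 there were 1 and 0. Hox genes detected numbered 8, 6 and 6 in Cbx2 and 3, 3 and 4 in Cbx7 knockouts, against 4, 3 and 5. All genes detected numbered 10651 to 10699 in Cbx2 and 10420 to 10533 in Cbx7 knockouts, against 10427 to 10506. Whether any 2 knockouts differed from each other was not tested.

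Outside Polycomb, Atrx and Cxxc1 groups showed a rise. Atrx, a chromatin remodeler that deposits histone H3.3, had Hoxc4 at 5.00, 5.13 and 3.86 TPM against 1.38, 2.11 and 0.878 TPM (log2 difference 1.23 ± 0.18 (SE), adjusted p = 3.17e-07), where 3.38% of genes passed. Atrx RNA was at 18.2 ± 0.944 against 17.6 ± 0.651 TPM. The libraries labelled Cxxc1 knockout, in which Cxxc1 RNA was higher than in controls at 8.54 ± 3.46 against 1.73 ± 1.17 TPM (adjusted p = 0.0118), had Hoxa10 at 1.03, 4.81 and 4.19 TPM against a listed 0 (adjusted p = 1.06e-08), where 21.4% of genes passed.

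The 14 falls concerned Hoxb7, Hoxc13 and, in the Jarid2 knockout, Hoxc5. Hoxb7 was at 3.90, 6.54 and 1.78 TPM in batch 2 controls and at a mean of 0 to 0.217 TPM in the Ascl2, Cxxc1, Elf5, Ets2, Lmo2 and Mcrs1 knockouts of that batch (adjusted p = 5.87e-05 to 0.00155). Hoxc13 was at 1.79, 2.61 and 3.86 TPM in the same controls and at a mean of 0.0272 to 1.04 TPM in 5 of these knockouts, all but Ascl2 (adjusted p = 0.0012 to 0.0448). Hoxb7 was at 2.42, 3.37 and 3.02 TPM in batch 5 controls and at a mean of 0 to 0.303 TPM in the Kdm6b and Zfp57 knockouts (adjusted p = 0.000456 and 0.00494). Since these 13 comparisons rest on 6 control libraries, they are not independent of each other. In batch 2, the Suz12 knockout had Hoxb7 at 2.36, 7.45 and 1.64 TPM and Hoxc13 at 1.57, 4.56 and 2.45 TPM, and neither passed (adjusted p = 0.870 and 0.998). The groups overlapped for Hoxc13 in the Ets2 knockout, and the libraries labelled Ascl2 knockout (n = 2) had Ascl2 RNA at 29.0 ± 1.18 against 6.35 ± 2.14 TPM (adjusted p = 0.0657).

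GSK-J4 left Hox genes without a call in limma. At E4.5, where 1.15% of all genes passed, Hoxb13 was at 0, 15.5 and 11.9 TPM in treated and 0, 18.8 and 0 TPM in control libraries (adjusted p = 0.824). Hoxc13 was at 1.02, 2.77 and 0.698 against 0, 2.18 and 0.844 TPM (adjusted p = 0.903). At E5.0, where 28.3% of all genes passed, 1 Hox gene was tested and did not pass. Hoxa10 reached 5.99 TPM in 1 treated E5.0 library and Hoxb7 8.73 TPM in another. At an unadjusted p under 0.05 there were 0 Hox genes at either stage, and without control replicate 2 at E5.0, 1 passed as lower. PrE markers summed to 6278 to 7233 TPM in treated E5.0 libraries against 833 to 852 TPM, and their part was not tested.

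Zbtb17 perturbation in the embryo also gave 0 Hox calls with limma. In the Zbtb17 knockout of the screen (E5.0 Epi, batch 6), where 30.4% of all genes passed, 2 Hox genes were tested. Hoxb13 was at 2.70 ± 4.68 against 1.53 ± 1.41 TPM (SD, n = 3 and 3, adjusted p = 0.944). Hoxc13 was at 1.61 ± 1.56 against 2.09 ± 2.56 TPM (adjusted p = 0.841). In the dTAG table, where 11.7% of all genes passed, Hoxb7 was listed at 0 in the 3 treated libraries and was at 1.44, 1.45 and 2.23 TPM in controls (adjusted p = 0.0644, 1 Hox gene at an unadjusted p under 0.05). At E4.5, where 0.131% of all genes passed (6 of 4576), 0 Hox genes could be tested: 5 of 6 libraries had 0 detected, and 1 knockout library had Hoxa10 at 1.38 TPM. These E4.5 libraries are titled knockout, while their treatment field reads dTAG, and Zbtb17 was listed at 0 in the 3 controls.

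In wild-type EB more Hox genes were detected on day 1 than on day 0, as were genes in general. Between day 1 and day 3 the summed levels of anterior and posterior Hox genes moved in opposite directions. The number detected was 3 and 2 on day 0, 15 and 16 on day 1, 12 and 12 on day 2 and 8 and 7 on day 3. The sum was 10.3 and 8.93, 39.6 and 41.8, 34.8 and 32.4, and 29.4 and 26.1 TPM. Paralog groups 1 to 3 had mean sums of 1.46, 11.9, 12.0 and 18.1 TPM on days 0 to 3, groups 4 to 8 had 4.57, 15.1, 12.1 and 6.16 TPM, and groups 9 to 13 had 3.59, 13.7, 9.46 and 3.51 TPM. Anterior genes thus reached their highest sum on day 3, and middle and posterior genes on day 1.

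Day 0 stood apart from the other days. It had 5970 to 6983 genes detected against 12807 to 13512 later, its 10 most abundant genes took 33.2% to 36% of TPM, and 97.6%, 97.5% and 97.7% of all tested genes passed on days 1, 2 and 3 against day 0. Of all tested genes 91.4%, 90.7% and 90.4% were higher, with median log2 differences of 2.8, 2.795 and 2.799 against 1.094, 1.182 and 1.307 for the Hox genes tested, so a rise from day 0 is no result about Hox genes. Against day 0, 10 of 11 Hox genes tested rose by day 1, 9 of 11 by day 2, and 6 of 8 rose and 2 (Hoxb9 and Hoxc6) fell by day 3, but with quantile normalization 12 of these Hox rises, over the genes named here, had the opposite direction. The comparison of day 3 with day 1, added after the values were seen, avoids day 0.

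Between day 1 and day 3, 9 of 12 Hox genes tested passed, 4 higher and 5 lower, beside 69.9% of all genes (31.9% higher and 37.9% lower). These counts lie near the shares of all genes, so the number of calls is no result about Hox genes. The 4 that rose all lie in paralog groups 1 to 3, of which 5 were tested. Of these, Hoxd1 was under 1 TPM in both day 1 libraries and passed the filter only through day 3. The direction of its change is therefore no evidence by itself. Hoxb1, which specifies a hindbrain segment, rose from 1.94 and 1.77 to 5.37 and 4.52 TPM (log2 difference 1.06 ± 0.17 (SE), n = 2 and 2, adjusted p = 0.000155). Hoxb3 rose from 1.72 and 1.43 to 3.20 and 2.53 TPM (log2 difference 0.58, adjusted p = 0.00822), and Hoxd1 from 0.518 and 0.660 to 1.42 and 1.19 TPM (0.53, adjusted p = 0.00498). Hoxb2, the highest Hox gene in EB, was at 4.37 and 5.01 TPM on day 1 and 5.75 and 4.82 TPM on day 3 (adjusted p = 0.338).

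The 5 that fell lie in groups 6 to 13. Hoxd13 fell from 3.46 and 3.50 to 1.03 and 1.06 TPM (log2 difference -1.14 ± 0.13 (SE), adjusted p = 5.75e-06). Hoxb6 fell from 1.33 and 1.77 to 0.134 and 0 TPM (adjusted p = 3.09e-05), Hoxc6 from 2.44 and 3.03 to 0.454 and 1.02 TPM (adjusted p = 8.74e-05), Hoxb9 from 2.31 and 2.01 to 0.471 and 0.301 TPM (adjusted p = 0.000117) and Hoxb13 from a mean of 1.20 to 0.326 TPM (adjusted p = 0.00637). Hoxb6, Hoxb9 and Hoxb13 were under 1 TPM in both day 3 libraries and passed the filter only through day 1. The direction of these 3 falls is therefore no evidence by itself. Hoxb4 and Hoxb7 did not pass. EB pairs correlated at 0.993 to 0.997, so their p-values may measure technical spread only.

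A marker list for another cell type fell in the same wild-type libraries. The 14 stromal and fibroblast markers summed to 166 to 169 TPM on day 0, 217 to 226 on day 1, 102 to 105 on day 2 and 63.7 to 68.4 on day 3, and 10 of 12 tested were lower on day 3 than on day 1. Posterior signals rose over these days, 9 of 15 with 3 falls. The part of either in the Hox result was not tested.

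**Figure D4:**
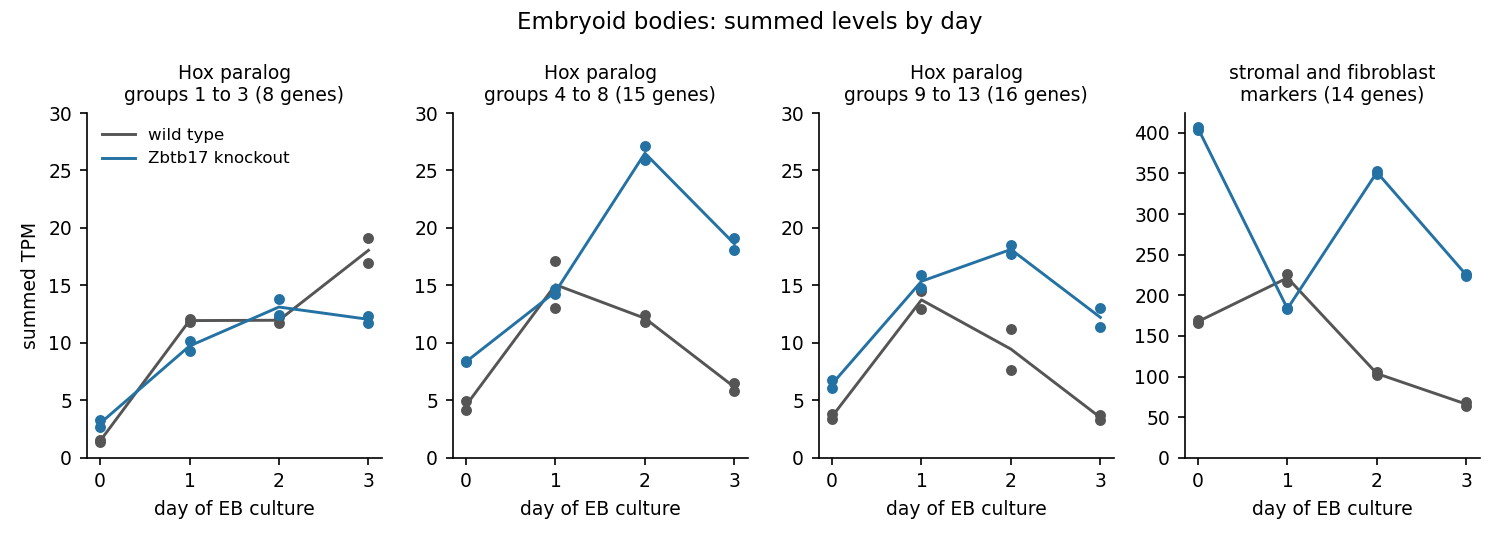
Summed TPM of Hox paralog groups 1 to 3, 4 to 8 and 9 to 13, and of 14 stromal and fibroblast markers (own scale), against the day of EB culture, with each library a point and the mean a line, wild type in grey and Zbtb17 knockout in blue. On days 2 and 3 the knockout lies above wild type for groups 4 to 13 and for the stromal markers, and below it for groups 1 to 3 on day 3.

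Zbtb17 knockout EB had higher summed levels of middle and posterior Hox genes than wild type on days 2 and 3, and lower Hoxb1 and Hoxd1. Zbtb17 (Miz1), a DNA-binding zinc finger protein, was itself lower in knockout EB, at 10.0 ± 0.174 against 22.1 ± 1.85 TPM on day 1, 13.4 ± 1.06 against 21.9 ± 1.20 on day 2 and 13.5 ± 0.243 against 17.7 ± 0.472 on day 3 (SD, n = 2 and 2, adjusted p = 1.66e-06, 3.15e-05 and 0.00208). Detected Hox genes numbered 3 and 4 on day 0, 16 and 13 on day 1, 20 and 21 on day 2 and 15 and 16 on day 3. The sum was 17.9 and 17.7, 39.6 and 39.5, 56.9 and 58.7, and 42.9 and 42.8 TPM. On days 2 and 3 both counts and sums lay above those of wild type in every library. The number of all genes detected did too. It was 13454 and 13512 against 13192 and 13192 on day 2, and 13049 and 13082 against 12807 and 12816 on day 3.

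On day 0, where 58.9% of all genes passed with a median log2 difference of 0.23, 3 Hox genes were tested and rose. Hoxc8 was at 2.22 and 1.91 against 1.14 and 0.648 TPM (adjusted p = 0.00515), Hoxc6 at 2.90 and 2.46 against 1.51 and 1.4 TPM (adjusted p = 0.0159) and Hoxb9 at 2.66 and 2.39 against 1.46 and 1.14 TPM (adjusted p = 0.0186). Without wild-type replicate 2 only 1 passed. On day 1, where 36.4% of all genes passed, 2 of 15 did. Hoxc13 was at 1.89 and 2.53 against 1.18 and 0.854 TPM (log2 difference 0.67, adjusted p = 0.00626) and Hoxb1 at 1.26 and 0.705 against 1.94 and 1.77 TPM (-0.54, adjusted p = 0.0304). Without wild-type replicate 2 there was 1 call on day 1, and without knockout replicate 2 there were 0.

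Over all Hox genes with no filter, both knockout libraries lay above both wild-type libraries for 10 of 15 genes of groups 4 to 8 on day 2 and 14 on day 3, and for 8 and 9 of 16 genes of groups 9 to 13. Over all genes measured this share was 21.8% on day 2 and 20.9% on day 3. Both lay below for 0 genes of groups 4 to 8 on either day and for 1 and 0 of groups 9 to 13, beside 28.0% and 29.0% of all genes. At 1 TPM or more in both knockout but not in both wild-type libraries were 6 genes of groups 4 to 8 on day 2 and 8 on day 3, and 5 and 1 of groups 9 to 13. These passed the filter through the knockout, so the calls among tested genes in these groups are given as values and carry no direction of their own.

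On day 2, 13 of 21 Hox genes tested rose and 2 fell, beside 42.8% of all genes (18% higher and 24.9% lower). With quantile normalization 6 Hox genes passed rather than 15, and with a pseudocount of 0.1, 9 did. Hoxb9 had the largest log2 difference, at 4.05 and 4.57 against 1.55 and 0.634 TPM (1.38 ± 0.19 (SE), n = 2 and 2, adjusted p = 0.00012). Hoxc6 was at 4.70 and 6.71 against 1.86 and 2.09 TPM (1.16 ± 0.17 (SE), adjusted p = 0.000218) and Hoxc4 at 1.45 and 1.38 against 0.298 and 0.389 TPM (0.85 ± 0.11 (SE), adjusted p = 6.55e-05). All 3 had groups apart.

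The others that rose on day 2 had log2 differences of 0.94 for Hoxb8, 0.93 for Hoxc8, 0.84 for Hoxc10, 0.82 for Hoxa9, 0.78 for Hoxa5, 0.68 for Hoxc9, 0.64 for Hoxb2, 0.63 for Hoxa10, 0.60 for Hoxb6 and 0.53 for Hoxb7 (largest adjusted p = 0.0386, for Hoxc9). Hoxb2 was the only anterior gene among them, at 5.82 and 7.17 against 4.06 and 3.51 TPM. The 2 that fell were both of group 1. They were under 1 TPM in both knockout libraries and passed the filter only through wild type. The direction of these falls is therefore no evidence by itself. Hoxb1 was at 0.901 and 0.855 against 2.44 and 1.49 TPM (-0.64, adjusted p = 0.0109) and Hoxd1 at 0.433 and 0.588 against 1.09 and 1.45 TPM (-0.58, adjusted p = 0.00619).

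On day 3, 9 of 15 Hox genes tested rose and 3 fell, beside 55.2% of all genes (20.9% higher and 34.3% lower). With quantile normalization 7 passed rather than 12. Genes that act at the front of the axis were among the falls. Hoxd1 was under 1 TPM in both knockout libraries and passed the filter only through wild type. The direction of its fall is therefore no evidence by itself, whereas Hoxb1 was over 1 TPM in every library. Hoxb1 was at 1.62 and 2.05 against 5.37 and 4.52 TPM (log2 difference -1.07 ± 0.17 (SE), n = 2 and 2, adjusted p = 0.000259) and Hoxd1 at 0.320 and 0.665 against 1.42 and 1.19 TPM (-0.63 ± 0.14 (SE), adjusted p = 0.00261). Hoxb2 was at 5.94 and 4.60 against 5.75 and 4.82 TPM (-0.01, adjusted p = 0.968), with overlapping groups.

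Rises on day 3 included the following genes. Hoxb9 was at 2.90 and 2.90 against 0.471 and 0.301 TPM (log2 difference 1.496 ± 0.19 (SE), adjusted p = 3.57e-05). Hoxb6 was at 2.17 and 1.77 against 0.134 and 0 TPM (1.48 ± 0.17 (SE), adjusted p = 1.72e-05) and Hoxc6 at 3.39 and 3.09 against 0.454 and 1.02 TPM (1.30 ± 0.17 (SE), adjusted p = 4.86e-05). These 3 genes are among the 5 that fell between day 1 and day 3 in wild type, as is Hoxd13, at 2.91 and 2.84 against 1.03 and 1.06 TPM (0.93 ± 0.13 (SE), adjusted p = 7.15e-05). Both contrasts share the wild-type day 3 libraries.

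The remaining rises of day 3 were 1.07 for Hoxc8, 1.03 for Hoxb5, 0.87 for Hoxb8, 0.52 for Hoxb7 and 0.43 for Hoxa5, with Hoxa5 nearest the threshold (adjusted p = 0.0435). Hoxa5, Hoxb6, Hoxb7, Hoxb8, Hoxb9, Hoxc6 and Hoxc8 rose on both day 2 and day 3. Hoxb9, Hoxc6 and Hoxc8 also rose on day 0, and on day 1 Hoxb9 and Hoxc6 did not pass (adjusted p = 0.525 and 0.783) and Hoxc8 was not tested. Whether the knockout effect differed between days was not tested. Hoxd11, which passed no test, was at 1.21 and 1.09 TPM in knockout EB on day 1 against 1.08 and 0.894 TPM.

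**Figure D5:**
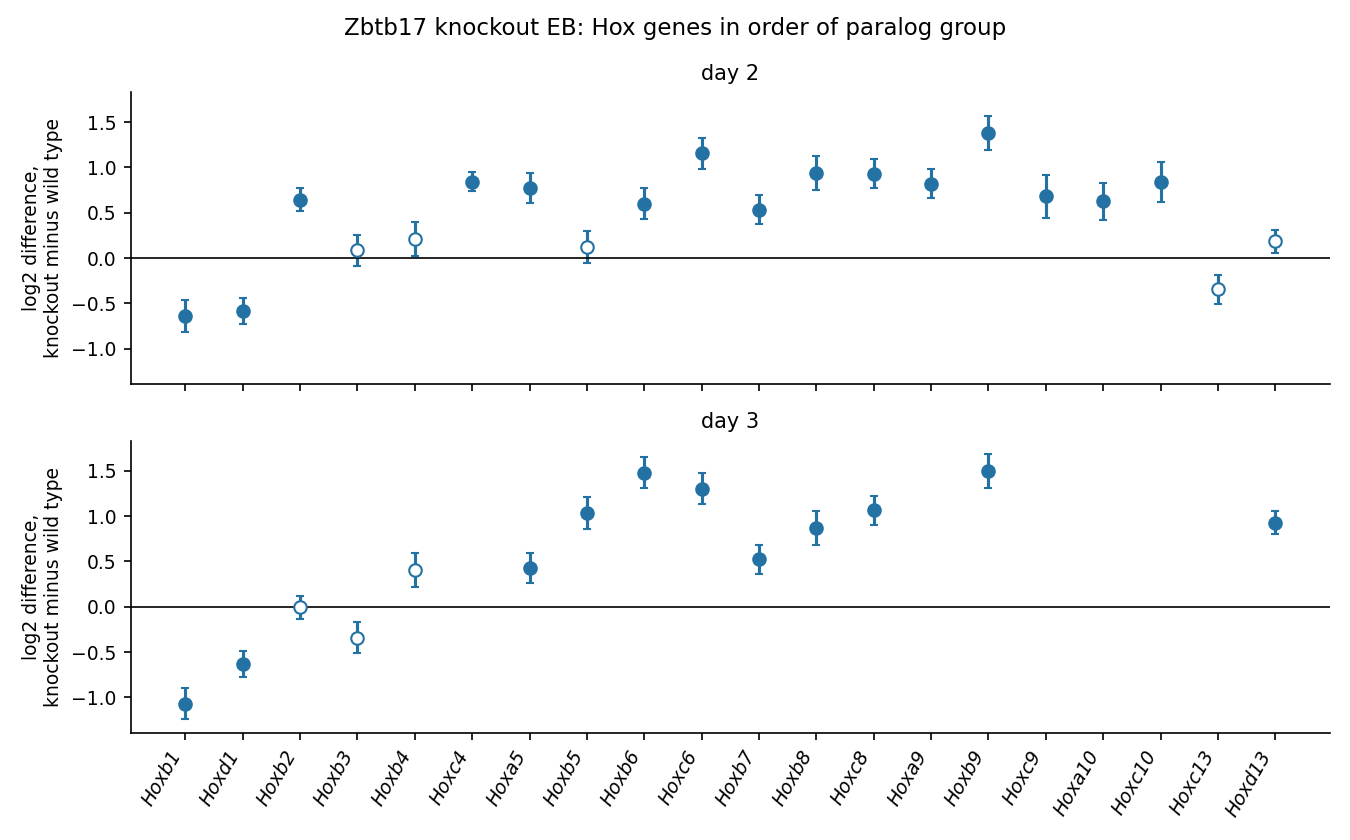
Log2 difference (knockout minus wild type, on TPM + 1) of Hox genes tested in EB on day 2 (top) and day 3 (bottom), ordered by paralog group, with bars of 1 SE over 2 and 2 libraries and filled points for an adjusted p under 0.05. Hoxb1 and Hoxd1 lie below 0, and Hoxb9 is highest at 1.38 and 1.496. Genes at under 1 TPM in 1 genotype are shown only where the other was high enough to be tested.

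Other lists moved with these genes in the same libraries. All 12 stromal and fibroblast markers tested were higher in the knockout on day 2 and again on day 3, as were 11 of 11 on day 0, while on day 1 0 of 12 were higher and 5 were lower. Their sum was 404 to 407 TPM on day 0, 183 to 184 on day 1, 349 to 353 on day 2 and 224 to 226 on day 3 in the knockout. Collagen gene Col1a1 was at 71.8 ± 0.0587 against 13.9 ± 0.224 TPM on day 2 and 40.9 ± 1.49 against 5.44 ± 0.634 on day 3. Trophectoderm markers were higher on days 1, 2 and 3 (13 of 16, 13 of 16 and 11 of 15, with 0, 1 and 2 lower). Their part in the Hox result was not tested.

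More signals and cofactors of the Hox genes fell than rose in knockout EB on day 3, as did genes in general. Of all genes tested, 18% were higher and 24.9% lower on day 2, and 20.9% higher and 34.3% lower on day 3. The list counts below stand beside these shares. Of 15 posterior signals tested, 3 rose and 8 fell on day 2 and 2 rose and 9 fell on day 3. T (brachyury), the mesoderm factor of the primitive streak, was at 10.7 ± 0.977 against 76.8 ± 2.51 TPM on day 3, Eomes at 9.48 ± 0.598 against 86.7 ± 2.02 and Fgf8 at 32.8 ± 4.06 against 199 ± 4.68 (largest adjusted p = 4.5e-08, for Fgf8). Of the TALE cofactors, 2 rose and 2 fell of 9 on day 2, and 6 of 8 fell on day 3, including Pbx3 at 15.6 ± 0.923 against 40.1 ± 1.41 TPM and Pbx2 at 32.7 ± 0.890 against 65.8 ± 5.68. In the retinoic acid pathway 5 rose and 2 fell of 14 on day 2, and 3 rose and 4 fell of 12 on day 3, near the shares of all genes on day 3. Cyp26a1, which degrades retinoic acid, was at 0.575 ± 0.128 against 4.65 ± 0.461 TPM on day 2, and Dhrs3 at 4.58 ± 0.143 against 16.7 ± 0.110 TPM on day 3.

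ParaHox and Evx genes had 1 rise and 1 fall of 5 on day 2 and 1 rise (Gbx2) and 4 falls on day 3, among them Evx1, next to the Hoxa cluster, at 1.10 ± 0.199 against 4.57 ± 0.215 TPM. Of other developmental Polycomb targets 15 rose and 6 fell of 29 on day 2 and 14 rose and 4 fell of 23 on day 3, with Foxa2 among the falls. PRC2 subunits had 5 rises and 1 fall of 12 on day 2 and 5 and 3 of 12 on day 3, with Eed at 109 ± 1.80 against 73.9 ± 5.54 TPM on day 3. PRC1 subunits had 2 rises with 6 and 9 falls of 19, and trithorax genes 1 and 2 rises with 5 falls of 11. Genes flanking the clusters had 2 rises and 4 falls of 21 on day 2 and 6 and 9 of 21 on day 3, the latter near the shares of all genes. Hotairm1 was at 11.2 and 14.5 against 6.11 and 9.31 TPM on day 2 (adjusted p = 0.0224), Hoxb5os at 1.15 and 1.32 TPM against a listed 0 on day 2 (adjusted p = 0.00972), and Hoxb3os at 0 and 1.17 against 1.68 and 2.68 TPM on day 3 (adjusted p = 0.0419).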

How the data were processed

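TPM values per gene, for 25006 genes in 7 tables, were deposited by the authors; the tools named in the submitters' processing notes are StringTie 2.2.1, HISAT2 2.2.1 and Cufflinks, with mm10 as the build, in roles not given in the sources used here. Total TPM was 984852 to 993453 per library. The labels call the samples of a group biological replicates; where cultures or embryos were not separate, p-values measure technical spread. The EB table has no gene names and was read in the row order of the screen table: the correlation of the mean log2 levels was 0.893 in that order and at most 0.112 when shifted by 1 to 5 rows.

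Differences were tested with limma 3.58.1 (R 4.3.3, trend and empirical Bayes moderation) on log2(TPM + 1), with 1 fit for all groups of the Suz12 Eed, EB and screen tables, a filter of 1 TPM in a number of libraries equal to the smaller group's size, and Benjamini-Hochberg adjustment within a comparison; the script was tested on simulated data. PrE control replicates 1 and 2 (correlation 0.997) and the 3 Aurkb knockout libraries (0.9987 to 0.9989) were each averaged and counted as 1; Aurkb was left untested. Same-numbered samples deviated together (every correlation over 0.1) in 1 of 43 comparisons with 3 pairs, the Suz12 Eed Epi one (0.101 to 0.238).

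The Hox members, the gene lists and the tests were chosen with earlier results of these data known. Named are Hox genes that passed a test, those at 1 TPM in every library of a group and the 3 highest in Epi controls; other genes come from the lists, at most 4 per comparison by size of change. Alternatives were a pseudocount of 0.1, no filter, quantile normalization, median centring, separate fits, a replicate block and leaving out each replicate. Promoters are RefSeq's. For 1 Hox gene, kept in all counts and sums over the family, individual values are not reported here.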

Additional observations from a re-analysis of the deposited data

Results flagged for a closer look

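The Suz12 Eed double knockout effect in PrE minus that in Epi was -1.67 on the log2 scale for Hoxc13 and 1.66 for Hoxc9, and each was singled out because the limma test of that difference passed. Hoxc13 was already at 7.86 to 9.15 TPM in PrE controls.

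In Zbtb17 knockout EB, 4 Hox genes had every knockout library on one side of wild type on one day and on the other side on another day. These day differences were not tested. Hoxb2 had a knockout minus wild-type mean of -0.914 TPM on day 1 and 2.71 TPM on day 2, and Hoxc10 of -0.443 and 1.36 TPM on the same days. Hoxc13 went the other way, at 1.19 TPM on day 1 and -0.707 TPM on day 2. Hoxc8 was at 1.17 TPM on day 0, -0.549 TPM on day 1, 1.32 TPM on day 2 and 1.14 TPM on day 3.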

How the results depend on the processing

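Of 99 reported Hox gene and comparison pairs that passed, 36 kept direction and call under every alternative run, 52 lost the call under at least 1 and 12 changed direction under at least 1. The causes were not tested unless given. Hox genes per library over all libraries averaged 3.12 at 1 TPM or more, 8.11 at 0.1 TPM or more and 9.03 above 0. With no filter, which tests more genes, counts were 59 in the screen (25 in the main analysis), 0 in Epi (1) and 2 in PrE (7) double knockouts, 0 for the difference between them (2), 1 for dTAG (0), 24 and 14 for EB days 1 and 2 against day 0 (10 and 9), and 21 for day 3 against day 1 (9). A pseudocount of 0.1 gave 16 in the screen, 1 for the difference, 1 for EB knockout day 1 (2) and 9 for day 2 (15). Quantile normalization gave 4 in PrE, 1 for the difference, 0, 6 and 7 for EB knockout days 1, 2 and 3 (2, 15 and 12), 5 for day 3 against day 0 (8) and 4 for day 3 against day 1. Median centring gave 2 in Epi, 1 in PrE and 1 for the difference. Fits of the compared groups alone gave 4 in PrE and 1 for EB knockout day 1. The replicate block gave 15 in the screen, 2 in Epi and 1 for EB knockout day 1; beside these, it moved no count by over 1.5 times. It was not run as planned for PrE, where 2 control replicates were averaged; with these kept apart, a choice made after seeing the data, it gave 6 in PrE.

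Under quantile normalization, log2 differences from EB day 0 on days 1, 2 and 3 were -0.37, -0.61 and -0.24 for Hoxb2 and -0.53, -0.29 and -0.009 for Hoxb3. They were -0.81 and -0.59 on days 1 and 2 for Hoxb4, -2.43 on day 1 for Hoxb9, -2.38 on day 1 for Hoxc6, -1.14 on day 2 for Hoxc13 and -0.14 on day 3 for Hoxd13.

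Leaving out 1 replicate, the screen count was 22 to 27, Epi 1 to 1, PrE 1 to 9 (1 without control replicates 1 and 2, 9 without double knockout replicate 2), the difference 0 to 2 (0 without control replicates 1 and 2 of PrE) and control PrE against Epi 2 to 2. It was 0 to 0 for GSK-J4 at E4.5, 0 to 1 at E5.0, and 0 to 0 for dTAG and the E4.5 knockout. EB knockout counts were 1 to 4, 0 to 3, 12 to 13 and 11 to 14 on days 0 to 3. Wild-type counts were 13 to 19, 10 to 12 and 8 to 11 for days 1 to 3 against day 0 (19 without day 0 replicate 1, 16 without replicate 2). For day 3 against day 1 they were 10 to 15 (15 without day 1 replicate 1, 14 without either day 3 replicate). A group left with 1 library was assumed to vary like the others. Depth is unknown, so counting error near 1 TPM cannot be given.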
